A study of Mus musculus with 2 samples.

Results

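The guanylate-binding proteins (GBPs) and immunity-related GTPases (IRGs) were followed through an Ago2 RNA immunoprecipitation (Ago2-IP) sequencing experiment in TM4 cells, a mouse Sertoli cell line. The 9 genes described are Gbp2, Gbp3, Gbp6, Gbp7, Irgm1, Irgm2, Igtp, Iigp1 and Ifi47, among 22609 genes in each count table. They were selected by family and with their read ratios between the libraries already known, so those ratios are given as a description. Cells had been transfected with either miR-471-5p mimic or scramble and were lysed 48 h later for pull-down with an Ago2 antibody, which recovers RNA bound to the microRNA effector protein Ago2. There was 1 library of mimic-transfected cells and 1 of scramble-transfected cells. Without replicates, no test between the conditions was possible and no p-values are given. All intervals at the 95% level below cover counting error only. The sources used here describe no library of RNA before the pull-down, so a change in the amount of an mRNA and a change in its association with Ago2 cannot be told apart. Nor can more cells with the mRNA be told apart from more mRNA per cell.

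GBPs and IRGs are large GTP-hydrolysing proteins of cell-autonomous immunity. Interferon-gamma induces them with the help of IRF1, and type I interferons induce many of them too. They gather on the membranes of vacuoles that hold parasites or bacteria and help to disrupt them. GBPs are relatives of dynamins and atlastins, and some carry a lipid tail that anchors them in membranes. IRGs fall into 2 classes by their nucleotide-binding motif. The GKS class, here Iigp1 and Ifi47, holds the effectors that load onto foreign vacuoles. The GMS class, here Irgm1, Irgm2 and Igtp, sits on the cell's own membranes and keeps the GKS proteins inactive there. The conjugation machinery of LC3, an autophagy protein, takes part in directing both families to their target membranes.

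The promoter stretches that carry an interferon motif are shown first, because these are the sites through which the family is classically switched on, followed by the transfected microRNA. Promoters were RefSeq windows of GRCm38.p6, from 250 bases before to 50 bases after the transcription start, and 7 of the 9 genes had one (not Gbp6 and Iigp1). The core of the interferon-stimulated response element (ISRE) was searched as GAAANNGAAA, and that of the gamma-activated site (GAS) as TTCNNNGAA, on both strands. Each stretch is written 5′ to 3′ on the strand of its gene, with motif letters in capitals. TTTC is the GAAA box read from the opposite strand.
Gbp7, chr3:142530278-142530307, plus strand: tgcagTTTCAGTTTCagttctccatcccca
Gbp3, chr3:142559994-142560023, plus strand: cacagTTTCAGTTTCTATTTCccagatccc
Gbp2, chr3:142620599-142620628, plus strand: tttagTTTCACTTTCactgtcttaagcata
Irgm1, chr11:48871426-48871455, minus strand: ttcaaGAAATAGAAACCGAAActgattctc
Igtp, chr11:58199511-58199540, plus strand: TTCTAGGAActGAAACTGAAAgctgttcgg
Irgm2, chr11:58214902-58214931, plus strand: TTCCAGGAActGAAACTGAAAgctgttcgg
miR-471-5p, chrX:66792634-66792655, minus strand, with the seed (bases 2 to 8) in capitals: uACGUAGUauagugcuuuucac

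The ISRE core was found in 6 of the 7 promoters, all but that of Ifi47, and in 3.44% of the 32851 promoters of the same length. In the 3 GBP promoters the motif lay on the opposite strand and began 45 to 59 bases upstream of the start. The motif of Gbp3 and that of Irgm1 were each made of 3 GAAA boxes, giving 2 overlapping matches. The GAS core was found in 3 of the 7 promoters (Gbp7, Irgm2 and Igtp), against 8.30% of all promoters. In Igtp and Irgm2 it stood 2 bases before the ISRE core, as the capitals show. Those 2 stretches of 30 bases differed at 1 position, counted from 1 at the 5′ end and with the base of Igtp first, T4C. The genes of chromosomes 3 and 11 lay in clusters of the family in the RefSeq annotation. Gbp7, Gbp3 and Gbp2 shared a cluster with Gbp5 and Gbp2b, and Igtp and Irgm2 were adjacent.

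Seed matches were searched in 1 transcript per gene, that with the longest coding region. In it none of the 9 genes held a match to the miR-471-5p seed in its 3′-UTR. The shortest match searched, CTACGT, was in the 3′-UTR of 5.90% of the 10580 tested genes with such a region in GENCODE M21 (GRCm38). The longer match ACTACGT was in 1.45% and ACTACGTA in 0.388%. In coding regions, CTACGT occurred in Gbp7 only among the 9 genes, at base 894 of 1914, against 16.6% of 10729 tested genes. Neither longer form was found in the coding regions of the 9 genes, and 4.50% and 0.475% of tested genes had them. These matches describe letters in a sequence and not binding.

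The libraries held 18628310 (mimic) and 18717225 (scramble) reads on genes, so that 3 reads, the limit set here for a count of 0, corresponded to 0.161 and 0.160 CPM (a gene's reads scaled to the library's total on genes). Genes with at least 20 reads over both libraries, 12186 in number, were compared, and are called tested genes here in the sense of a measured ratio. Their log2 ratio of mimic to scramble had a median of 0.00 and ran from -0.79 at the 5th to 0.90 at the 95th percentile. Of 15 Sertoli cell markers, 8 were above 3 reads in both libraries, among them Sox9 with 1228 and 1070 reads in mimic and scramble and Gata4 with 341 and 365. The Sertoli markers Fshr and Gata1 had 0 reads in both libraries, and Amh had 5 in each. Of 9 macrophage and leukocyte markers, 3 were above 3 reads in both libraries and 5 had 0 reads in both, among them Ptprc, Emr1, Itgam and Cd3e. The summed level of that list was 5.90 CPM in mimic and 3.31 CPM in scramble, with Cd14 at 81 and 26 reads, Csf1r at 18 and 25 and Cd68 at 8 and 9. The part of these in the results below was not tested.

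All 9 genes were recovered in both libraries and all had more reads in the mimic library. Together they took 8618 reads after mimic and 4756 after scramble, or 463 and 254 CPM, which was 1.81-fold higher (interval 1.75 to 1.88). Their log2 ratios ran from 0.39 for Irgm1 to 1.38 for Gbp3, with a median of 0.93. Each of the 9 intervals lay above 0, as did those of 31.5% of all tested genes, and 49.9% of tested genes had a log2 ratio above 0. A log2 ratio of 1 or more was reached by 3 of the 9 genes (Gbp3, Iigp1 and Ifi47), against 3.96% of tested genes. At 0.5 or more were 8 of the 9, against 14.9% of tested genes. None of the 9 was at -1 or below, where 2.95% of tested genes lay. Ifi47 at 1.08 was just above that threshold and Gbp2 at 0.95 just below it. Because the genes were selected with these ratios known, the shares are set side by side and nothing further is read from them.

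**Figure D1:**
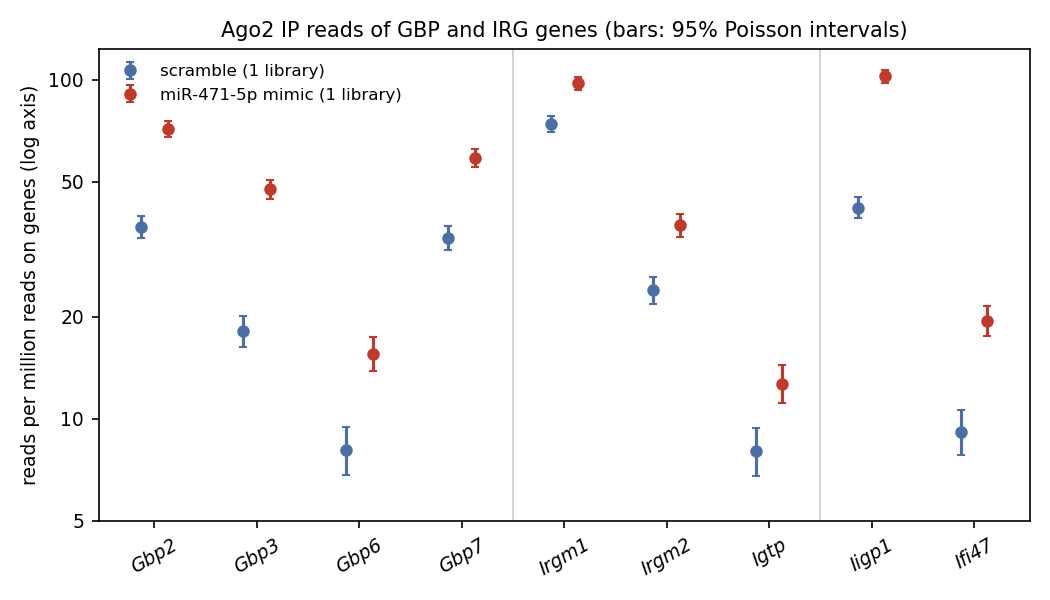
CPM (log axis) for the 9 genes in the 1 mimic library (red) and the 1 scramble library (blue), with exact Poisson 95% intervals, ordered as GBPs, GMS IRGs and GKS IRGs between the vertical lines. Every red point lies above its blue point and no pair of intervals overlaps. The gap is narrowest for Irgm1 (97.5 against 74.0 CPM) and widest for Gbp3 (47.5 against 18.1 CPM).

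Among the GBPs, Gbp2, a prenylated family member that coats parasite vacuoles, had 1334 reads after mimic and 688 after scramble. Gbp3, from the same cluster on chromosome 3, had 885 and 339 reads. Gbp7, described as a partner of the phagosomal NADPH oxidase, had 1095 and 639 reads. All 3 were therefore higher after the mimic, Gbp3 by 2.61-fold (interval 2.30 to 2.97), Gbp2 by 1.94-fold (1.77 to 2.13) and Gbp7 by 1.71-fold (1.55 to 1.89). On the log2 scale Gbp3 exceeded Gbp2 by 0.43 (0.20 to 0.66) and Gbp7 by 0.61 (0.37 to 0.84). The ratios of Gbp2 and Gbp7 differed by 0.18 with an interval of -0.02 to 0.37, which was not detectable at this depth. These are among 12 differences between pairs of genes that were computed, with intervals not adjusted for their number.

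Gbp6, from the GBP cluster on chromosome 5, was the least abundant GBP of the 9 genes, with 289 and 151 reads in mimic and scramble and a log2 ratio of 0.93 (0.65 to 1.23). Its value is uncertain because most of its transcript is not unique. Of the 50-base windows along the Gbp6 transcript, 70.3% also occurred in other genes, mostly in its close copy Gbp10. Gbp10 itself held 10 and 4 reads. For the other 8 genes that share was at most 4.79% (Gbp3), although 12.3% of the windows of Igtp overlapped the adjacent Irgm2 and 10.6% of those of Gbp7 a pseudogene model. A further 19.9% of the windows of Gbp6 occurred only in overlapping gene models, chiefly Gm43302. The 4 GBPs summed to 193 CPM after mimic and 97.1 CPM after scramble, a log2 ratio of 0.99 (0.91 to 1.07).

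Iigp1 (Irga6), the best-known vacuole-disrupting effector of the IRGs, had 1908 reads after mimic and 785 after scramble. It was thus the member with the most reads in the mimic library, and its fold of 2.43 (interval 2.23 to 2.64) was second to that of Gbp3. Ifi47 (Irgd), the other GKS protein of the 9, had 362 and 171 reads, a fold of 2.11 (1.76 to 2.55). Both GKS genes reached a log2 ratio of 1, and the gap between the libraries was far larger than counting error in both.

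The GMS regulators were also higher after the mimic, by less. Irgm1, which sits on Golgi and lysosome membranes, had 1817 reads after mimic and 1385 after scramble, a fold of 1.31 (1.22 to 1.41). Irgm2 had 692 and 448 reads, a fold of 1.54 (1.37 to 1.74). Igtp (Irgm3), the GMS protein of the endoplasmic reticulum and lipid droplets, had 236 and 150 reads, a fold of 1.57 (1.28 to 1.94). None of the 3 reached a log2 ratio of 1. Irgm2 exceeded Irgm1 by 0.24 on the log2 scale (0.03 to 0.44), whereas the interval of Igtp against Irgm1 included 0 (0.26, -0.06 to 0.58).

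The 2 GKS genes and the 3 GMS genes of the 9 differed in the size of the ratio. Summed, the GKS genes had a log2 ratio of 1.25 (1.14 to 1.36) and the GMS genes one of 0.47 (0.38 to 0.55). All 6 pairs of a GKS with a GMS gene differed in the same direction with intervals above 0. The widest gap was Iigp1 over Irgm1, 0.89 (0.73 to 1.05), and the narrowest was Ifi47 over Igtp, 0.43 (0.02 to 0.84). The gap describes these 5 genes, since other IRGs outside the GMS class ran from -0.17 for Irgc1 to 2.11 for Gm12250. Irgq was at 0.04, and Tgtp2 (0.39), Gm12185 (0.59) and Gm4951 (0.69) lay near the GMS values. Genes were assigned to classes from textbook knowledge with the counts known, and with 1 library per condition the variation of this gap between cultures is not known.

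**Figure D2:**
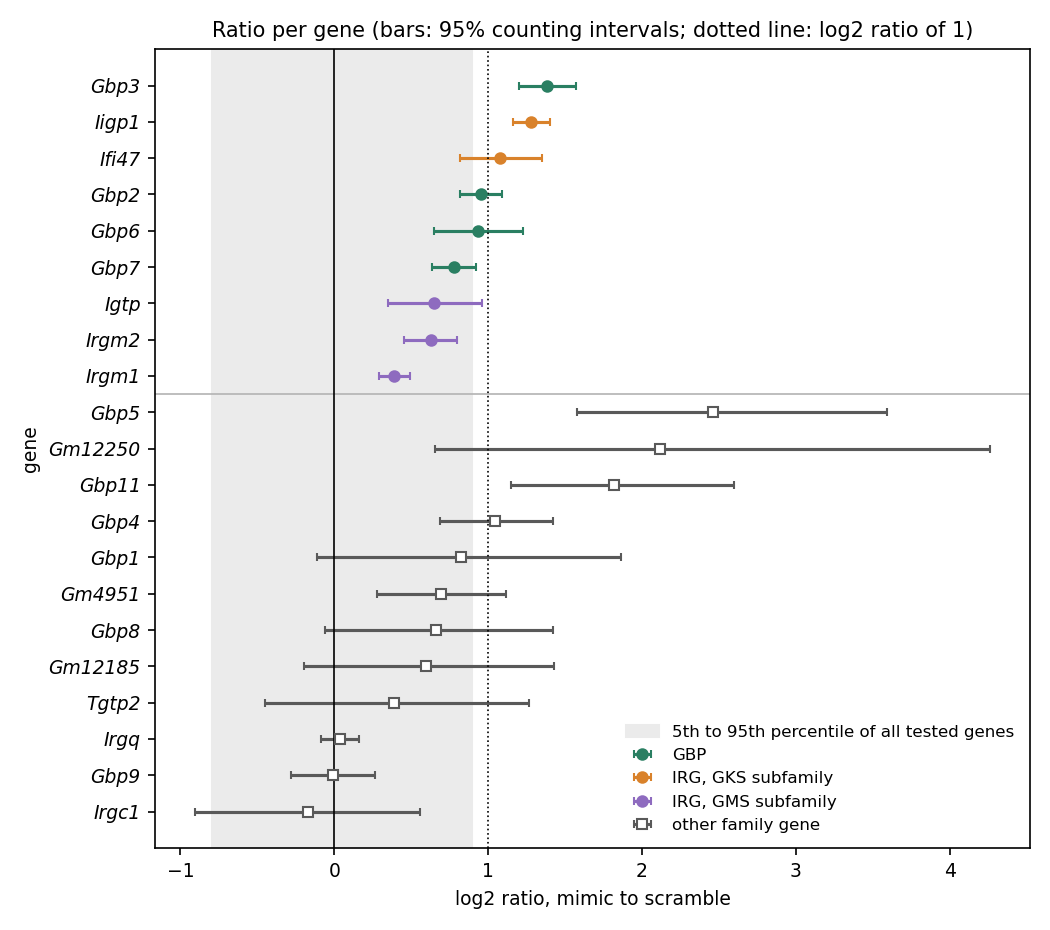
Log2 ratio of mimic to scramble (x axis) per gene, with exact counting intervals of 95%, for the 9 genes (filled circles coloured by class) and the 12 other GBP and IRG genes with at least 20 reads (open squares). The grey band spans the 5th to 95th percentile of all tested genes (-0.79 to 0.90) and the dotted line marks a log2 ratio of 1. The 3 GMS genes (purple) sit lowest among the 9 genes, and 5 of the 9 lie to the right of the band.

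The make-up of the family's reads differed between the libraries. In the scramble library Irgm1 was the leading gene with 29.1% of the reads of the 9 genes (27.8 to 30.4, exact Clopper-Pearson interval). In the mimic library its share was 21.1% (20.2 to 22.0). Iigp1 went the other way, from 16.5% in scramble (15.5 to 17.6) to 22.1% in mimic (21.3 to 23.0). Gbp3 took 7.13% in scramble (6.41 to 7.90) and 10.3% in mimic (9.64 to 10.9). The shares of Gbp2, Gbp6, Gbp7, Irgm2, Igtp and Ifi47 had overlapping intervals in both libraries.

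**Figure D3:**
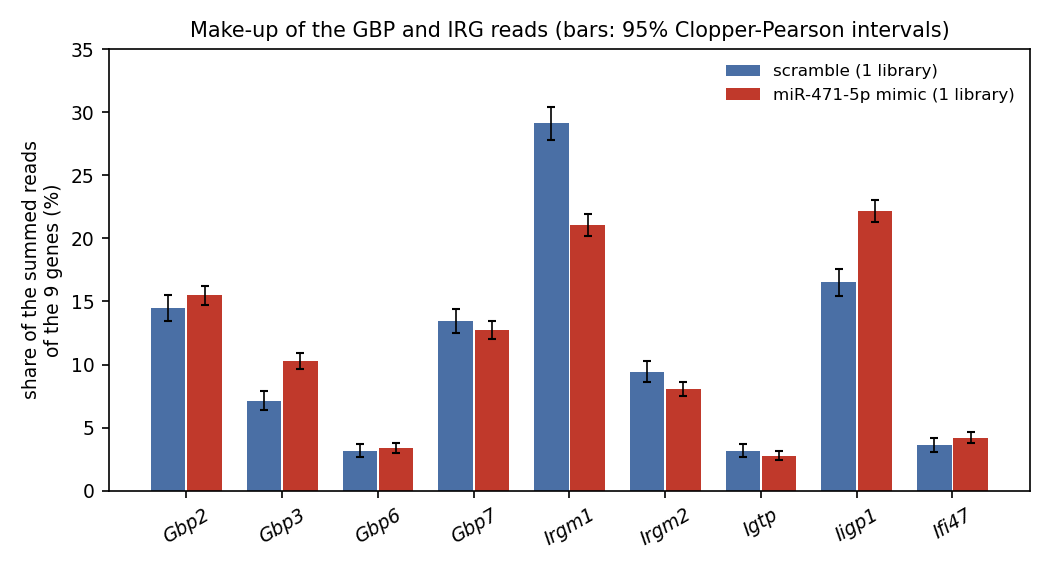
Share of the summed reads of the 9 genes taken by each gene (y axis, percent) in the scramble library (blue, 4756 reads) and the mimic library (red, 8618 reads), with exact Clopper-Pearson 95% intervals. The red bar is the shorter one for Irgm1 (21.1 against 29.1%) and the taller one for Iigp1 (22.1 against 16.5%) and Gbp3 (10.3 against 7.13%), without overlap of the intervals.

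Levels per transcript length (CPM per kilobase of the longest transcript) gave the order of abundance among the genes. In the scramble library Irgm1 was highest with 32.8, followed by Gbp2 with 14.6 and Iigp1 with 13.4, whose intervals overlapped. Irgm2 (6.78), Gbp3 (6.75), Gbp7 (6.08), Ifi47 (5.15), Igtp (3.96) and Gbp6 (3.10) followed, each overlapping its neighbour in this order. In the mimic library the order was Irgm1 (43.2), Iigp1 (32.8), Gbp2 (28.5) and Gbp3 (17.7), with no overlap among them. Ifi47 (11.0), Irgm2 (10.5) and Gbp7 (10.5 CPM per kilobase) came next and were not separable, nor were Igtp (6.27) and Gbp6 (5.96) below them. Ranked per kilobase among the 10729 tested genes with a transcript, Irgm1 stood at the 76.8 percentile in scramble and the 82.1 percentile in mimic. Iigp1 stood at 52.5 and 75.8, and Gbp6 at 21.7 and 32.6. The level and rank of Gbp6 are uncertain, since most of its transcript is not unique and reads aligned to several places were not counted.

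The log2 ratio varied with transcript length and GC content across the 10729 tested genes with a transcript, and a regression on both explained 15.4% of its variance. For the 9 genes the regression expected values between -0.27 and 0.11. After subtraction the 9 genes lay between 0.36 and 1.41 with a median of 0.96, and 3 were at 1 or more. These were Gbp3 (1.41), Iigp1 (1.38) and Gbp7 (1.04), while Ifi47 was at 0.97. Gbp7, with the longest transcript of the 9 (5614 bases, of which 3575 are 3′-UTR), was the gene that moved most. The differences between pairs of genes given above are without this correction. After it Gbp2 was at 0.96, below Gbp7. The GMS genes were then at 0.36 (Irgm1), 0.74 (Irgm2) and 0.56 (Igtp), still below both GKS genes, with Irgm2 closer to Ifi47 than before.

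The rest of the family was examined with a list of 24 symbols, of which 20 were in the tables. One of them, AI607873, is a PYHIN family gene and no GTPase. Of the other 19, 12 had at least 20 reads. A log2 ratio of 1 or more was reached by 4 of these 12, 10 were above 0, none was at -1 or below, and the median was 0.68. With AI607873 (87 and 36 reads in mimic and scramble, log2 ratio 1.26) the count was 5 of 13 and the median 0.69. The shares of all tested genes given above (3.96% at 1 or more) are the background for these counts too.

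The 4 were Gbp5, Gm12250, Gbp11 and Gbp4. Gbp5, which promotes inflammasome assembly, had 63 reads after mimic and 11 after scramble, a log2 ratio of 2.46 (1.58 to 3.59). Gm12250, the gene of Irgb10 that helps to break bacterial membranes, had 19 and 4 reads, a log2 ratio of 2.11 (0.66 to 4.26). Gbp11, listed by RefSeq as a transcribed pseudogene, had 79 and 22 reads and Gbp4 had 195 and 94, log2 ratios of 1.82 (1.15 to 2.60) and 1.05 (0.69 to 1.42). The first 3 of these ratios exceed that of Gbp3 and rest on fewer reads than any of the 9 genes had. The same ISRE core was found in 7 of the 10 other family genes with a promoter window, beside 3.99% of all genes with one. Among the 7 were Gbp5, 165 bases upstream of the start, and Gm12250. Gbp2b, Tgtp2 and Gm12185, whose ratios lay below 1, also had it, as did Tgtp1, with 0 reads in both libraries.

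The other 8 family genes above the minimum stayed below 1, and the intervals of 7 of them included 0. Gbp9, from the chromosome 5 cluster that holds Gbp4 and Gbp6, had 225 reads after mimic and 226 after scramble, a log2 ratio of -0.01 (-0.28 to 0.27). Irgq, a divergent IRG, had 1101 and 1071 reads, a log2 ratio of 0.04 (-0.08 to 0.16). Irgc1, a testis-expressed IRG that is not interferon-inducible, had 32 and 36 reads, a log2 ratio of -0.17 (-0.90 to 0.56). Gbp1 (Gbp2b), Gbp8, Gm12185 and Tgtp2 had positive log2 ratios between 0.39 and 0.83 whose intervals included 0. Gm4951, with 128 and 79 reads, was at 0.69 (0.28 to 1.12). Tgtp2 shares 90.6% of its windows with other genes, chiefly Tgtp1, which had 0 reads in both libraries. The remaining genes stayed under the minimum of 20 reads. Among them F830016B08Rik had 4 reads after mimic and 15 after scramble, the opposite direction, and Gm5431 had 8 and 0. The pair 9930111J21Rik1 and 9930111J21Rik2 had 3 and 1 reads in each library, and Gvin1 had 0 in both.

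The genes of interferon signalling were compared next, from ligand to target. The interferons themselves were hardly detected. Ifng, Ifna1, Ifna2, Ifna4, Ifna5, Ifnk, Il28a and Il28b had 0 reads in both libraries, which allows up to 0.161 CPM by that limit. Ifnb1 had 1 read in scramble and Ifne 1 read in mimic. The receptors were present. Ifnar1, the receptor with the most reads, had 3140 reads after mimic and 2840 after scramble, a log2 ratio of 0.14 (0.07 to 0.22). The interferon-gamma receptor chains Ifngr1 (1414 and 1364 reads) and Ifngr2 (2823 and 2710) were at 0.05 and 0.06, with intervals that included 0. Ifnar2 (2886 and 2046 reads) and Il10rb (1587 and 1061) were the highest, at 0.50 (0.41 to 0.58) and 0.58 (0.47 to 0.69). None of the 5 receptor genes tested reached a log2 ratio of 1 (3.96% of all tested genes), and their median was 0.14.

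Of 13 tested kinases and transcription factors, 1 reached a log2 ratio of 1 (3.96% of all tested genes) and none -1 (2.95%). This was Irf7, the regulator that amplifies type I interferon responses, with 696 reads after mimic and 222 after scramble and a log2 ratio of 1.65 (1.43 to 1.87). Irf1, a main factor of GBP induction by interferon-gamma, had 11876 and 9514 reads, a log2 ratio of 0.32 (0.28 to 0.36). Stat2 was at 0.60 and Irf9 at 0.61, while the kinases Jak1 (8971 and 13964 reads) and Jak2 (3255 and 4923) were lower after the mimic, at -0.64 and -0.60. Irf8 had 0 reads in both libraries. The median of the list was 0.32. Of 7 inhibitors of signalling, Usp18, which blocks the type I receptor and is itself interferon-induced, was at 1.12 (678 and 312 reads, 0.92 to 1.32). Socs3, the inhibitor with the most reads, had 14161 and 9714 and was at 0.54, and the median of the inhibitors was 0.34.

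The genes of the machinery around the proteins were compared in the same way. Of 10 genes of LC3 conjugation none reached 1 or -1, and the median was 0.16. Among all tested genes 3.96% were at 1 or more and 2.95% at -1 or below, so a count of 0 among 10 genes is near these shares. Gabarap, a relative of LC3, had the most reads of them (5830 and 4109) and was at 0.50 (0.45 to 0.56), whereas Atg12 (2960 and 3754 reads) was at -0.34. The 5 genes of prenylation, which attaches the lipid tail of some GBPs, had a median of -0.18. Their most abundant gene, Fnta, had 1676 and 1892 reads and was at -0.18. The constitutive relatives of the GBPs served as a comparison within the dynamin superfamily. Of the 10 atlastins, dynamins, mitofusins and Opa1, 2 were above 0 (49.9% of all tested genes), none reached 1 or -1, and their median was -0.22. Atl3, an atlastin that shapes the endoplasmic reticulum, had 4644 and 7682 reads and was the lowest at -0.73 (-0.78 to -0.67). The highest was Dnm3, with 83 and 45 reads, at 0.88 (0.34 to 1.44).

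Of the 11 inflammasome and vacuole-lysis partners in the tables, 7 were tested, none reached 1 and the median was 0.34. Sqstm1, a cargo receptor of autophagy and the most abundant of them, had 12838 and 9835 reads and was at 0.38 (0.35 to 0.42). Lgals3, the galectin that marks ruptured vacuoles, had 10192 and 5199 reads and was at 0.97 (0.92 to 1.02). Casp4, the caspase that senses bacterial lipopolysaccharide, had 1341 and 834 reads and was at 0.68 (0.56 to 0.81). The other 4 were under the minimum of 20 reads. Casp1 had 16 reads after mimic and 3 after scramble, Aim2 had 0 in both libraries, and Nlrp3 and Pycard had 1 read each, in scramble. Over all 7 lists from ligands to partners, 2 of 57 tested genes (Irf7 and Usp18) were at a log2 ratio of 1 or more and none at -1 or below, beside 3.96% and 2.95% of all tested genes. Of the 57, 36 were above 0, beside 49.9% of all tested genes, and their median was 0.14.

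**Figure D4:**
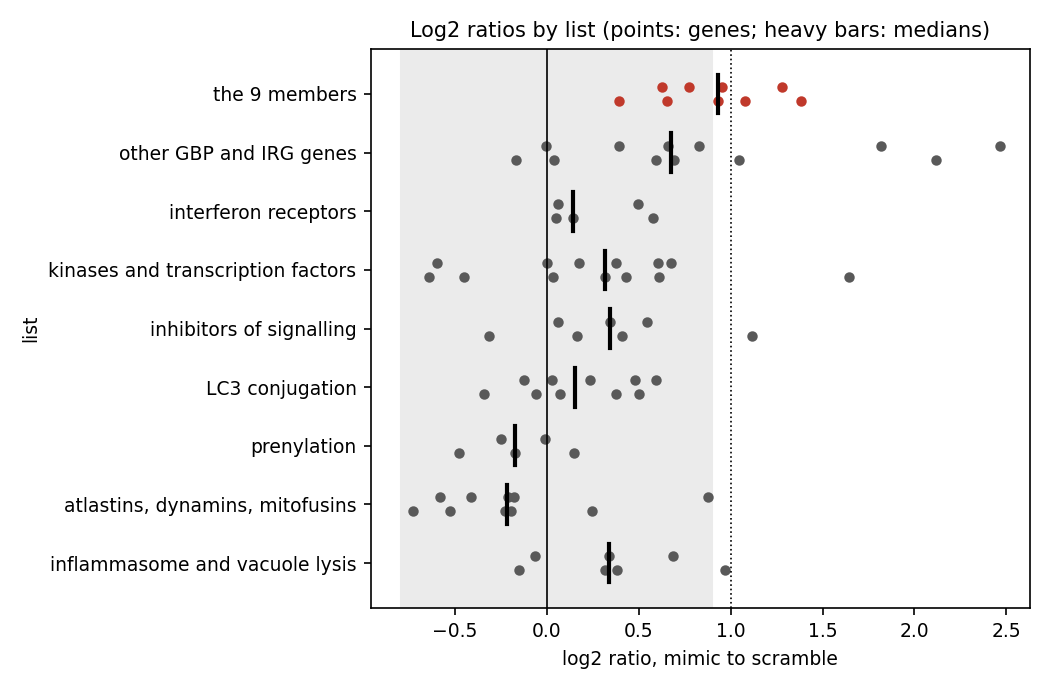
Log2 ratio of mimic to scramble (x axis) of every tested gene, by list. Points are genes, heavy bars are list medians, the grey band is the 5th to 95th percentile of all tested genes and the dotted line a log2 ratio of 1. The 9 genes (red, median 0.93) and the other GBP and IRG genes without AI607873 (median 0.68) have the highest medians, and the constitutive dynamin relatives the lowest (-0.22). Members and lists were chosen with earlier results of these data known, so this order is a description only.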

How the data were processed

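The authors deposited raw counts of reads per gene symbol, 1 table per library, with 22609 genes and 5 summary rows. Per the submitters' processing notes, CASAVA 1.8.2, TopHat2 2.0.8b and HTSeq were used with mm9. Annotation, strandedness and read length are not given in the sources used here, so reads of overlapping genes may be misassigned. Reads aligned to several places were left out of gene counts (39.8% of entries in mimic, 35.6% in scramble), as were reads outside genes (6.84% and 7.89%) and ambiguous ones (0.653% and 0.585%), which lowers genes with close copies.

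TMM factors of edgeR 4.0.16, run in R 4.3.3, set the scale of each library. No model was fitted, since there was 1 library per condition. Log2 ratios used a prior count of 0.5 and genes with at least 20 counts. The mimic library's part of a gene's counts, with its exact binomial (Clopper-Pearson) bounds, gave the intervals of the ratios, and the Poisson distribution those of CPM. The ratio computation was tested on simulated data with counting error only. That check does not cover variation between cultures. Transcript length, GC content, coding regions, 3′-UTRs and repeated 50-base windows came from GENCODE M21 (GRCm38), matched by symbol for 88.0% of tested genes. RefSeq coordinates belong to GRCm38.p6 and not to the authors' mm9. Python 3.11.15, numpy 2.4.6, scipy 1.17.1, pandas 2.3.3 and matplotlib 3.10.9 were used.

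The members and lists were chosen with earlier results of these data known. The text names all members, the genes of each list past a log2 ratio of 1 (up to 4), the gene with the most reads that was not, and family genes under the count minimum. Further genes, named for their role or as the extremes of a list, were chosen after their values were seen. Alternatives were other scalings, count minimums, prior counts and thresholds, and the correction for length and GC content. That correction for the count of members, and leaving out AI607873, were added after seeing the data. A few genes of the marker and pathway lists are not reported here by name.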

Additional observations from a re-analysis of the deposited data

Results flagged for a closer look

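One value outside the comparison stood above its level in the scramble library. Entries aligned to several places made up 39.8% of the mimic library and 35.6% of the scramble library, and none of them is in the gene counts. Among GBP and IRG genes with close copies, 70.3% of the 50-base windows of Gbp6 and 90.6% of those of Tgtp2 also occurred in other genes. How many of these entries belong to GBP and IRG genes was not tested, because the tables do not say where they aligned.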

How the results depend on the processing

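Of 68 values recomputed under an alternative, 64 were classed as unchanged. Ratios and medians had to stay within a counting interval, whereas counts of genes were allowed a small shift. The 64 therefore include 2 counts that fell. Members went from 3 to 2 with the stricter interval rule, and other family genes from 5 to 4 without AI607873. Lowering the threshold from a log2 ratio of 1 to 0.5 raised the count of members from 3 to 8, that of other family genes from 5 to 9 and that of the pathway genes from 2 to 12 of 57, while the share of all tested genes went from 3.96% to 14.9%. The fourth change was Gbp7, at 0.78 as measured and 1.04 after correction for length and GC content. That correction kept the count of members at 3 with Gbp7 in the place of Ifi47 (0.97). With the lower end of the interval required to reach 1, 2 members remained above it, Gbp3 and Iigp1. Other scalings moved all ratios by at most 0.02 on the log2 scale. All 45 recomputed member ratios were above 0. No replicate could be left out, and the spread between cultures is unknown, so the intervals understate the error of every ratio. Depth limits the other family genes with few reads, such as Gm12250 and Gbp1, and multiple alignment limits Gbp6.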
